A study of Mus musculus with 16 samples.

Results

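The Achilles tendon of C57BL/6J mice was compared with 3 other tendons of the same strain, using RNA sequencing read counts from 4 Achilles libraries and 12 others. The others were 4 libraries each of the forepaw flexor (Flexor), the patellar (Patellar) and the supraspinatus (Supraspinatus) tendon. All 16 libraries share the inbred strain C57BL/6J, and the labels name no treatment, engineered allele or time point. The labels give neither age nor sex. Genes were chosen by 1 rule: the lowest level in Achilles lay above the highest of the other 12 libraries, or the highest in Achilles lay below their lowest. Levels are CPM, counts relative to library size, scaled by the trimmed mean of M-values (TMM), so they compare a gene across libraries but not genes of different length. Of 23754 genes with enough counts to test, 396 were higher in Achilles without overlap (1.67%) and 155 were lower without overlap (0.653%). Because the rule used these levels, they are given below as a description, with no test. For the same reason nothing is read from the 227 higher and 86 lower ones that also passed the edgeR test against each of the 3 tendons. Of all genes tested, 274 higher and 138 lower ones passed in that way (1.15% and 0.581%).

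An Achilles tendon carries the force of the calf muscles, which include the soleus, a muscle rich in slow, oxidative fibres, to the heel bone. Where it meets bone, and where it presses against bone, the tissue is fibrocartilage that mineralizes towards the bone. Limbs carry lasting positional identities set by transcription factors such as Tbx5 in the forelimb, Isl1, Pitx1 and the posterior Hoxc genes in the hindlimb, and Hox genes along the limb. Tendon cells of different sites can keep parts of these programmes in the adult.

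The Achilles libraries held 84414005 to 97180849 counts each. The 12 others held 34559686 to 107805065, and the shallowest were Patellar. Genes with rRNA-like sequence took 3.3 to 4.91% of the Achilles counts, 13.2 to 42% of the Patellar counts and 1.86 to 3.59% in Flexor and Supraspinatus. The pairwise correlation of log2 CPM between Achilles libraries was 0.981 on average, against 0.926 among Patellar libraries, across genes, which are not independent replicates. A count of 0 still allows up to 3 counts, which is 0.0274 to 0.03 CPM in Achilles and up to 0.104 CPM in Patellar, for counting error only. Nothing in the labels says that libraries of 1 tendon came from separate animals beyond their mouse numbers, so the p-values below measure the spread between libraries. The tendon genes Scx, Mkx and Tnmd were all present in the Achilles libraries, at 11.9 to 23.3, 28 to 58.6 and 118 to 257 CPM.

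Among the 396 genes higher in Achilles, the ratio of the Achilles mean to the mean of the other 12 libraries had a median of 3.6, with quartiles of 2.09 and 8.01. It was over 2-fold for 305 genes and over 10-fold for 72. The 155 lower genes differed less, by a median of 2.13-fold with quartiles of 1.62 and 2.88, and 6 of them by over 10-fold. The gap between the nearest libraries of the groups, taken as a ratio with 0.5 CPM added to both, exceeded 2-fold for 40 higher and 4 lower genes, and stayed under 1.1-fold for 147 and 94. Protein-coding genes made up 75.3% of the higher and 87.1% of the lower genes, against 66.6% of all genes tested. Another 49 higher and 3 lower genes kept apart in the same way had too few counts to be tested, and 68 of the 396 had enough counts only through the Achilles libraries.

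The scaling sets how many genes fall on each side. With CPM by total counts alone, 671 genes were higher and 40 lower without overlap, and the median gene moved by 0.22 on the log2 scale towards Achilles. Of the genes chosen here, 368 of 396 and 39 of 155 also kept apart under that scaling, and with median-ratio size factors 387 and 147 did. The means of all 551 genes stayed on the same side under both. The 15 genes of each direction that had the widest gaps, described below, kept apart under both scalings.

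Achilles replicate 3 held the most extreme values. It was the highest Achilles library for 222 of the 396 higher genes (56.1%), against 32.7% of all genes tested, and the lowest for 91 of the 155 lower genes (58.7%), against 36.6%. It also had the most skeletal muscle RNA, with the muscle lists at 15.5% of counts, against 9.63%, 8.3% and 9.2% in replicates 1, 2 and 4. What muscle RNA contributed to the other differences was not tested, except by a fit with muscle genes as a covariate that is given where it applies.

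Slow-twitch muscle fibre genes made up the largest group of named genes without overlap. Myh7, the slow myosin heavy chain, had the largest gap of the 551 genes, and its means were 123-fold apart. Of 19 slow fibre genes tested, 14 were higher in every Achilles library than in any other, and 15 were higher and 0 lower by the edgeR quasi-likelihood test against the mean of the other 3 tendons. Over all genes tested, 10.8% were higher and 5.81% lower in that comparison. The list's median log2 difference was 3.20, against 0.03 over all genes. The rule chose 14 of the 15 called genes from these same levels, so the calls and the median are a description. The same holds below for list genes that kept apart. The promoters of Myh7 and Tnni1 are shown because these genes encode the motor and a thin filament regulator of the slow fibre. RefSeq sequence of GRCm38.p6 for the 250 bases before the outermost listed start reads as follows, with capitals for matches on either strand to the E-box letters CANNTG, to the RUNX core TGTGGT, to the TATA box TATAAA and to the PITX core TAATCC.
Myh7, chr14:54994627-54994876, minus strand: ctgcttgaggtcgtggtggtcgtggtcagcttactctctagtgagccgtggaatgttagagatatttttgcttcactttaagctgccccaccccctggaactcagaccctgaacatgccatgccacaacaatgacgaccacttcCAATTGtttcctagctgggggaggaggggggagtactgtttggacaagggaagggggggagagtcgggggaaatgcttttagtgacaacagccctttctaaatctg
Tnni1, chr1:135799171-135799420, plus strand: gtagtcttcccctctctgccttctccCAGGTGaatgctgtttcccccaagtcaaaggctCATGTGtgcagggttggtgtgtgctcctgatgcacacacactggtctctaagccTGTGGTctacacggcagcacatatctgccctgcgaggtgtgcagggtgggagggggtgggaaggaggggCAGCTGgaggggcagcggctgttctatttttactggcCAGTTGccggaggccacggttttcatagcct

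The Myh7 window holds 1 match to CANNTG, the E-box letters that myogenic factors can bind, and the Tnni1 window holds 4 as well as 1 match to TGTGGT, the core letters bound by RUNX factors. CANNTG occurred in 16 of the 16 slow fibre genes with a RefSeq promoter and in 11 of 15 fast fibre genes with one. It occurred in 59.4% of the windows of all genes tested and in 66.1% of all RefSeq windows. These are matches of letters in a window and not measured binding sites. The Tnni1 window, before the outermost RefSeq start, lies inside the GENCODE span of the gene given below.

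Myh7 (chr14:54970684-54994626, GRCm38) was at 4195, 2401, 5220 and 2674 CPM in Achilles replicates 1 to 4. In the other 12 libraries it ran from 6.08 to 213 CPM with a median of 8.8. The highest of these was Patellar replicate 1, and the gap, with 0.5 CPM added, was 11.2-fold. Tnni1, the slow skeletal troponin I (chr1:135779434-135810989), was at 884, 706, 1387 and 711 CPM in Achilles. Elsewhere it ran from 3.43 to 141 CPM with a median of 8.02. The highest other library was again Patellar replicate 1, and the gap was 4.98-fold.

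Troponin T of the slow fibre, Tnnt1, was at 1380, 1095, 2155 and 1084 CPM in Achilles and at 5.95 to 274 CPM (median 13.5) elsewhere. The slow and cardiac light chains Myl3 and Myl2 followed the same pattern, with Achilles means of 1974 and 1335 CPM and ratios to the other 12 of 44.3 and 32.7. Atp2a2, the calcium pump of slow and cardiac muscle, was at 928, 709, 1239 and 752 CPM in Achilles and at 46.6 to 200 CPM (median 95.9) elsewhere. Casq2, which stores calcium in the same compartment, was 9.29-fold higher in the mean, at 111 to 227 CPM against 2.51 to 32.2 CPM. Tecrl, known from calcium handling in the heart, was at 5.05 to 15.4 CPM in Achilles and at most 0.781 CPM elsewhere. Achilles replicate 3 was the highest library for every gene of this paragraph, and Patellar replicate 1 was the highest of the others for all but Casq2, where a Flexor library was.

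Tnnc1, Tpm3, Myoz2, Sln, Ankrd2, Fhl2 and Myh7b completed the 14 slow fibre genes without overlap. Csrp3, Mb, Myl6b, Smtnl1 and Tead1 overlapped, and of these only Myl6b passed the test. Myoglobin, Mb, the oxygen store of oxidative fibres, averaged 1794 CPM in Achilles and 1885 CPM in Flexor. The slow fibre genes also differed among the other tendons, on contrasts that the rule did not use, although the highest of the 3 set the bound for membership. Myh7 was higher in Patellar than in Supraspinatus by 3.18 on the log2 scale (SE 0.75, edgeR adjusted p = 0.002), whereas Tnni1 was higher in Flexor than in Supraspinatus by 3.80 (SE 0.88, edgeR adjusted p = 0.0043).

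**Figure D1:**
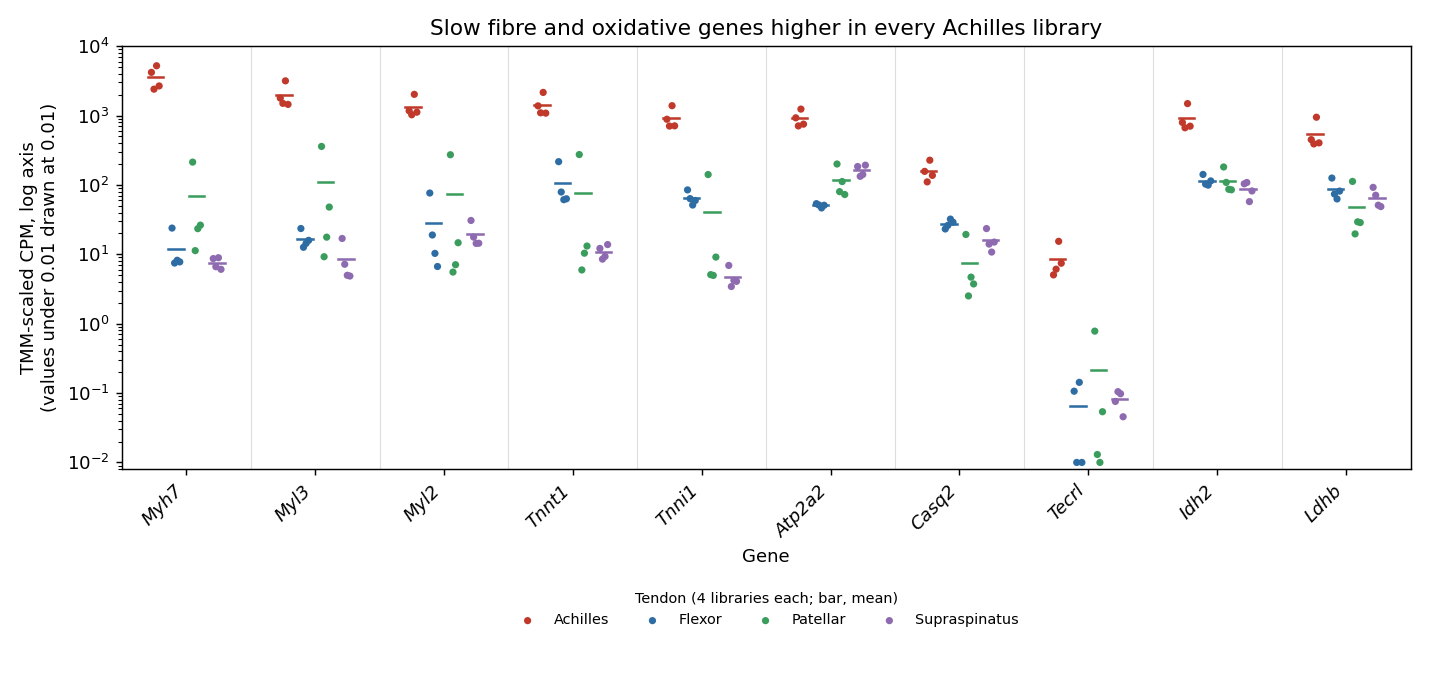
TMM-scaled CPM on a log axis of 8 slow fibre or heart-type muscle genes and of the metabolic enzymes Idh2 and Ldhb in each of 16 libraries, with points for libraries and bars for the mean of 4. All 4 Achilles points lie above the other 12 for each gene, and for Myh7 they run from 2401 to 5220 CPM against 6.08 to 213 CPM.

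Fast fibre genes did not share this pattern. Of 19 tested, 0 kept apart from the other libraries, 1 (Myh2) was higher and 2 (Myh4 and Pvalb) were lower against the mean of the other tendons (edgeR quasi-likelihood test). The 3 other tendons differ in how much muscle they hold, with the muscle lists at 10.7 to 15.2% of counts in Flexor, 19.5 to 21.1% in Supraspinatus and 0.154 to 1.48% in Patellar. Without the Patellar libraries, 16 of the 19 fast fibre genes were lower and 0 higher, while 15 of the 19 slow fibre genes were higher and 0 lower. Over all genes, 4723 were higher and 4340 lower in that setting. Myh4, the fastest adult myosin, was at 116, 120, 331 and 840 CPM in Achilles and at 29.7 to 29396 CPM elsewhere. Its log2 difference was -3.11 (SE 0.60, edgeR adjusted p = 0.0022). Against each tendon in turn, which share the Achilles libraries, 10 slow fibre genes were higher than in Flexor, 17 than in Patellar and 14 than in Supraspinatus, with 0 lower. Of the 19 fast fibre genes, 1, 17 and 0 were higher and 5, 0 and 13 lower, in the same order of tendons. Against Patellar, 37 of 38 other skeletal muscle genes were higher too, with 0 lower, so that excess was not particular to slow fibre genes. The background of higher calls was 9.72%, 21% and 16.7% of all genes, and that of lower calls 6.49%, 17.4% and 16.9%.

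With the 4 adult myosin heavy chains set against each other per kilobase of exon, Myh7 made up 45.2%, 35.2%, 32.7% and 28.4% of their sum in Achilles. It made up 5.27 to 18.4% in Patellar, 0.0256 to 0.0783% in Flexor and 0.0133 to 0.0167% in Supraspinatus, so no library of another tendon reached the Achilles range. Myh4 made up 1.79%, 2.52%, 2.97% and 12.8% in Achilles, 28.8 to 50.3% in Patellar, 33 to 61.1% in Flexor and 76.2 to 82.6% in Supraspinatus. Other slow and fast pairs gave a like order for troponin I, with Tnni1 at 14.1 to 20.3% of Tnni1 and Tnni2 in Achilles and at most 9.6% elsewhere. For troponin C, the calcium pump and calsequestrin the Patellar libraries reached into or above the Achilles range: Atp2a2 was 6.78 to 9.93% of both pumps in Achilles and 11.4 to 45.2% in Patellar, and Casq2 was 14.2 to 16% of both calsequestrins in Achilles and 6.6 to 25.6% in Patellar.

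**Figure D2:**
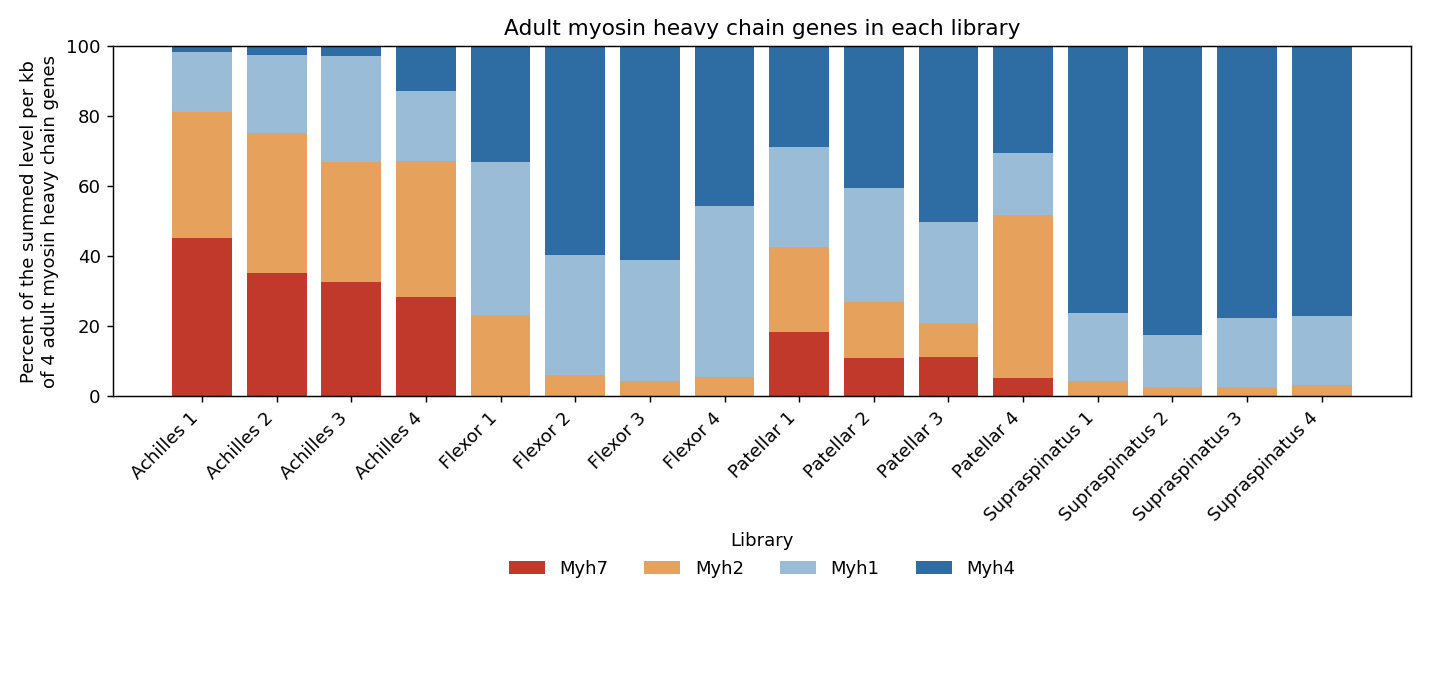
Percent that each of 4 adult myosin heavy chain genes took of their summed level per kilobase, for each of 16 libraries on the horizontal axis. Myh7 takes 28.4 to 45.2% in the 4 Achilles libraries, 5.27 to 18.4% in Patellar and too little to see in Flexor and Supraspinatus.

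Enzymes of oxidative metabolism were higher along with the slow fibre genes. Of 29 genes of fatty acid oxidation, 23 were higher and 0 lower against the mean of the other tendons (edgeR quasi-likelihood test; 10.8% and 5.81% of all genes), and 7 kept apart without overlap. The list's median log2 difference was 0.90, and without the Patellar libraries 23 were higher and 1 lower with a median of 0.77. Over all genes, 4723 were higher and 4340 lower without those libraries. With the muscle genes as a covariate 21 were higher and 0 lower. Idh2, the mitochondrial isocitrate dehydrogenase, was at 796, 667, 1487 and 703 CPM in Achilles and at 57.5 to 182 CPM (median 103) elsewhere, 8.62-fold apart in the mean. Ldhb, the lactate dehydrogenase subunit of heart and oxidative muscle, was at 450, 390, 946 and 404 CPM and at 19.7 to 126 CPM (median 66.9) elsewhere. Neither gene differed between any 2 of the other tendons past the threshold.

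Hadh, which oxidizes short-chain fatty acids in mitochondria, was 2.02-fold higher in the mean, at 180 to 302 CPM against 97.6 to 136 CPM. Eci1 and Decr1, which prepare unsaturated fatty acids for oxidation, were 1.93-fold and 1.83-fold higher. The other 4 without overlap were Acadm, Acaa2, Etfa and Etfb. Acadm, the medium-chain dehydrogenase, averaged 328 CPM in Achilles and 112 to 196 CPM in the other tendons. Of 29 glycolysis genes, 3 were higher and 4 lower against the mean of all 3 tendons (10.8% and 5.81% of all genes). Without the Patellar libraries 1 was higher and 18 were lower, where 4723 of all genes were higher and 4340 lower. Against Patellar, 22 of the 29 were higher in Achilles and 1 was lower (21% and 17.4% of all genes).

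Bone and mineralizing matrix genes formed a second group. Of 20 genes tested, 10 were higher and 1 (Ank, a pyrophosphate transporter) lower against the mean of the other tendons (10.8% and 5.81% of all genes). Ibsp, Bglap2, Tnfrsf11b and Slc20a1, 4 of the 20, kept apart at higher levels, as did 1.67% of all genes. The list's lower calls depended on the tendons compared, since 3 genes were lower against Patellar and 3 against Supraspinatus but 0 against Flexor, and 3 were lower without the Patellar libraries. Of all genes, 17.4% were lower than in Patellar, 16.9% than in Supraspinatus and 6.49% than in Flexor. Ibsp, bone sialoprotein, a matrix protein of mineralizing bone and cartilage, had means 51.3-fold apart, and its promoter is shown because it leads the bone genes.
Ibsp, chr5:104299037-104299286, plus strand: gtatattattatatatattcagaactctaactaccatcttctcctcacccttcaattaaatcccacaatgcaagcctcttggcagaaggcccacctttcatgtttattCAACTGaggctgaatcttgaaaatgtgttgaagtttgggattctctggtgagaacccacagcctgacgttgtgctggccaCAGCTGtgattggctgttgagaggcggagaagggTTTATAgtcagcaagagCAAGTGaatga

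The Ibsp window holds 1 match to TATAAA, on the opposite strand and beginning 28 bases before the start, and 3 matches to CANNTG. It holds no match to TGTGGT, which says only that these letters are not in this window. The Ibsp window, before the RefSeq start, runs past the first base of the gene in the GENCODE annotation.

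Ibsp (chr5:104299171-104311469, GRCm38) was at 293, 807, 351 and 606 CPM in Achilles. In the other 12 libraries it ran from 0.314 to 37.9 CPM with a median of 3.64. Patellar replicate 1 was the highest of the others, and the gap was 7.63-fold, the largest after that of Myh7. The other tendons were ordered Patellar (25.5 CPM), Flexor (4.11 CPM) and Supraspinatus (0.472 CPM), and each step passed the edgeR test, with a log2 difference of -2.63 (SE 0.44, adjusted p = 0.00013) for Flexor minus Patellar and 3.12 (SE 0.48, adjusted p = 0.00014) for Flexor minus Supraspinatus.

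Bglap2, 1 of the osteocalcin genes of osteoblasts, was low throughout, at 0.43, 1.28, 1.35 and 0.72 CPM in Achilles and at most 0.273 CPM elsewhere, and its near-identical copy Bglap makes its counts uncertain. Tnfrsf11b, osteoprotegerin, which restrains osteoclast formation, was at 112, 129, 79.7 and 69.9 CPM in Achilles and at 6.35 to 62.4 CPM elsewhere. Slc20a1, a phosphate importer, averaged 116 CPM in Achilles against 56.1, 18.9 and 25 CPM in Flexor, Patellar and Supraspinatus. Spp1, osteopontin, was higher against the mean of the others, with 993 CPM in Flexor against 1505 CPM in Achilles, but did not keep apart from all other libraries. Of 10 osteoblast and osteocyte markers tested, 6 were higher and 0 lower against the mean of the other tendons (10.8% and 5.81% of all genes). The 6 were Bglap, Bglap2, Ibsp, Phex, Runx2 and Sp7, and Sp7 averaged 0.271 CPM in Achilles. Dmp1 averaged 0.733 CPM there and 2.81 CPM in Patellar, and Dmp1, Alpl and Ifitm5 did not pass the test. All 12 osteoblast and osteocyte markers together took 0.0381%, 0.0966%, 0.0394% and 0.0718% of the Achilles counts and 0.00159 to 0.00573% elsewhere. Ibsp made up 91 to 96.9% of that share in Achilles. The other 11 markers, a split made after the values were seen, took 0.00298 to 0.00344% of counts in Achilles and 0.000981 to 0.00246% elsewhere.

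Of 22 cartilage and fibrocartilage genes, 8 were higher and 2 (Cnmd and Fmod) lower in the same test (10.8% and 5.81% of all genes). Ibsp and Ucma kept apart. Ucma, made by cartilage cells at the edge of growing cartilage, was at 8.51, 13.9, 6.33 and 13.8 CPM in Achilles against 0.0786 to 6.25 CPM, a gap so small that it closed with CPM by total counts. Acan and Sox9, which define cartilage, did not pass (log2 differences of 0.75 and -0.41, edgeR adjusted p = 0.467 and 0.387). Gdf5, a growth factor of joints and tendon attachments, was at 7.37, 10.5, 3.02 and 7.64 CPM in Achilles and at 0 to 1.54 CPM elsewhere, 13.3-fold apart in the mean. Chad, Clec3a and Cytl1 were higher against the mean of the other tendons, yet Cytl1 was highest in Flexor, at 374 CPM against 231 CPM. Col24a1, a minor fibrillar collagen of bone, was at 11.9 to 17.3 CPM in Achilles and reached 11.7 CPM in Flexor replicate 4.

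**Figure D3:**
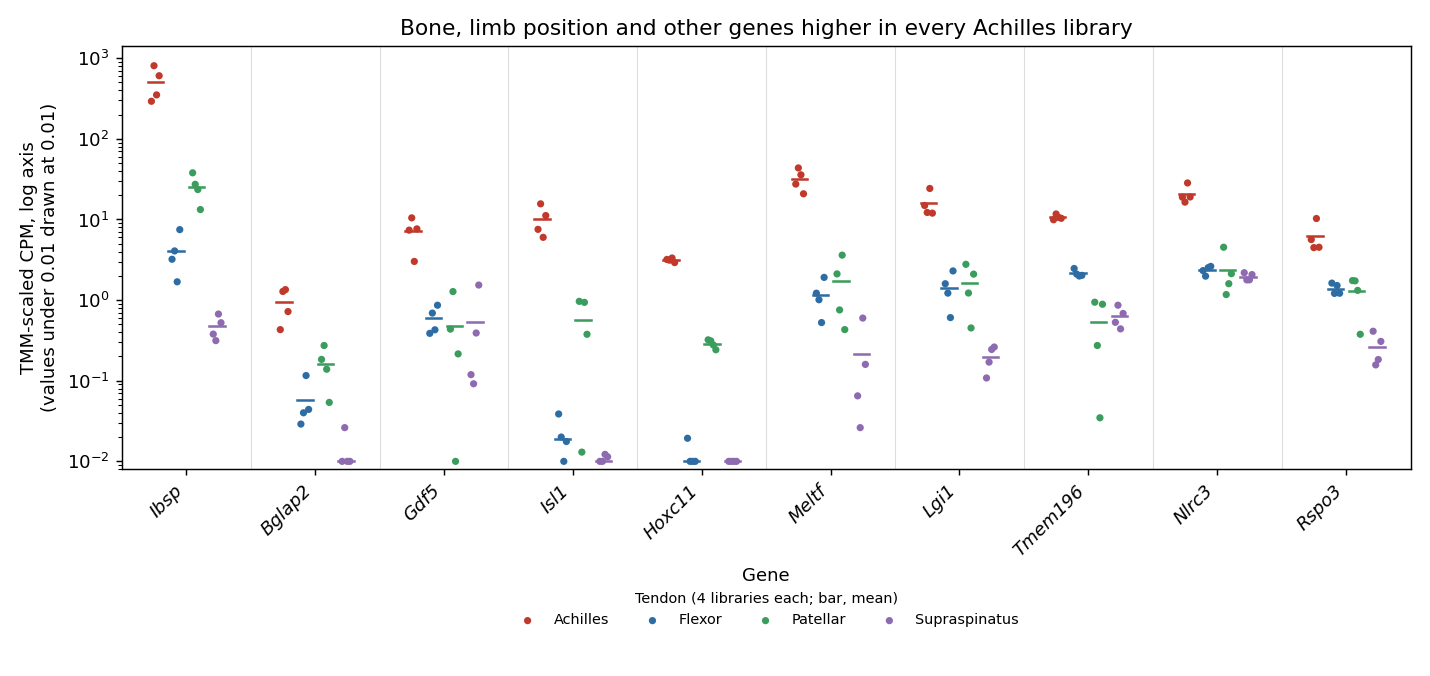
TMM-scaled CPM on a log axis of 10 genes of bone, limb position and other functions in each of 16 libraries, with points for libraries and bars for the mean of 4. The Achilles points lie above all others for each gene, and for Ibsp they run from 293 to 807 CPM against at most 37.9 CPM in Patellar.

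A few regulators of limb position kept Achilles apart from all 3 other tendons, and most did not. Of 7 hindlimb identity genes tested, 5 were higher and 0 lower against the mean of the other tendons (10.8% and 5.81% of all genes), and 2 kept apart. Against Patellar, the other hindlimb tendon, 2 were higher and 2 lower (21% and 17.4% of all genes), with a median log2 difference of -0.49. Of 5 forelimb and anterior Hoxc genes, Hoxc4, Hoxc6 and Hoxc8 were higher against the mean and Tbx5 lower, with a median log2 difference of 0.54, and only Tbx5 kept apart. Isl1, a transcription factor at the start of hindlimb formation, and Hoxc11, a posterior Hoxc gene, kept apart at higher levels, and Tbx5 at lower levels. The Isl1 promoter is shown because the gene marks the hindlimb field and was near 0 in both forelimb tendons.
Isl1, chr13:116309689-116309938, minus strand: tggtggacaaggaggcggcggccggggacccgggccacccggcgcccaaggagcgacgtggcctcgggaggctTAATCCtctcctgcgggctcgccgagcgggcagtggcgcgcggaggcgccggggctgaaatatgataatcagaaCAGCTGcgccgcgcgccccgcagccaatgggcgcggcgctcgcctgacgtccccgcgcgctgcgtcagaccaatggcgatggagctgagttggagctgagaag

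The Isl1 window holds 1 match to TAATCC, the core letters bound by PITX homeodomains, and 1 E-box match. The PITX letters were found in 5.93% of the windows of the higher genes and 2.78% of those of the lower genes, against 5.48% of all genes tested.

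Isl1 (chr13:116298281-116309689, GRCm38) was at 7.54, 15.6, 6 and 11.2 CPM in Achilles. Elsewhere it ran from 0 to 0.965 CPM with a median of 0.0153 CPM, and the highest was Patellar replicate 1. Flexor and Supraspinatus averaged 0.0191 and 0.0059 CPM, at or under the level of 3 counts. Isl1 passed the filter on low counts only through the Achilles libraries. Hoxc11 was at 3.19, 3.13, 3.33 and 2.92 CPM in Achilles, 0.289 CPM on average in Patellar, and 0 in all 4 Supraspinatus libraries. Among the others, Patellar was above Flexor for Hoxc11, with a log2 difference for Flexor minus Patellar of -5.57 (SE 0.62, edgeR adjusted p = 1e-05). For Isl1 no test among the other tendons is given, and its Patellar libraries ran from 0.013 to 0.965 CPM.

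Tbx5, the forelimb transcription factor, was at 0.46, 0.139, 0.24 and 0.419 CPM in Achilles. In the other 12 libraries it ran from 6.52 to 56.7 CPM with a median of 19.3, so the means were 83.7-fold apart. It was highest in Flexor (50.8 CPM), then Supraspinatus (20.3 CPM), and Patellar, a hindlimb tendon, still had 7.88 CPM. Each of these steps passed, with log2 differences of 1.32 (SE 0.22, edgeR adjusted p = 0.00026) for Flexor minus Supraspinatus and -1.37 (SE 0.22, edgeR adjusted p = 8.6e-05) for Patellar minus Supraspinatus. Tbx5 lies at chr5:119832668-119885219 on GRCm38.

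Hoxc10, Pitx1 and Tbx4 overlapped with other libraries. Hoxc10, also of the hindlimb, was at 13, 14.3, 18.9 and 13.8 CPM in Achilles and reached 34.3 CPM in Patellar replicate 1, with Flexor and Supraspinatus near 0. Pitx1, a hindlimb factor, was higher against the mean of the other tendons on the log scale (1.79, SE 0.21, edgeR adjusted p = 4.3e-05). Its plain means went the other way, because Patellar averaged 61 CPM and Achilles 19.3 CPM, and without the Flexor libraries the log2 difference was -0.52. Tbx4, the hindlimb partner of Tbx5, did not pass (0.17, SE 0.21, edgeR adjusted p = 0.644) and was highest in Flexor, at 21.7 CPM. Of 14 distal limb regulators, 6 were higher and 1 lower against the mean, but 9 were lower than in Flexor (6.49% of all genes). The lower one was Lhx9, at 0.0799 to 0.128 CPM in Achilles, 0.453 CPM in Flexor, 2.82 CPM in Supraspinatus and 17.2 CPM in Patellar.

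Vessel, nerve and fat markers were higher against the mean of the other tendons, but only vessel markers held genes without overlap. Of 22 endothelial markers 14 were higher and 0 lower (10.8% and 5.81% of all genes), and 4 kept apart: Kdr, Cdh5, Tie1 and Robo4. They took 0.221%, 0.17%, 0.147% and 0.167% of counts in Achilles and 0.038 to 0.19% elsewhere, a share that holds the 4 genes chosen by the rule and is given without a test. Kdr, the main receptor for the vessel growth factor VEGF-A, was at 139, 100, 101 and 100 CPM in Achilles against 23.4 to 71.2 CPM. Cdh5, the adhesion molecule between endothelial cells, was at 49.5 to 67.6 CPM against 17.3 to 41.4 CPM. Whether more endothelial cells or more RNA per cell lay behind these levels cannot be told apart in bulk tissue, here and for each list below. Of the pericyte and smooth muscle markers, 10 of 16 were higher, and Kcnj8 and Notch3 kept apart, Kcnj8 at 32.3 to 44.3 CPM against at most 22.5 CPM.

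Of 22 Schwann cell and nerve markers, 19 were higher against the mean (10.8% of all genes), yet each overlapped with other libraries. The list's median log2 difference was -0.13 against Flexor, 2.55 against Patellar and 5.45 against Supraspinatus, comparisons that share the Achilles libraries. Of the adipocyte markers, 22 of 26 were higher against the mean (10.8% of all genes). Against single tendons, 24 were higher than in Supraspinatus (16.7% of all genes) and 22 higher than in Flexor (9.72%). Against Patellar 1 was higher and 5 were lower (21% and 17.4% of all genes). Adiponectin, Adipoq, was at 344, 366, 171 and 535 CPM in Achilles and reached 1172 CPM in Patellar replicate 2. The nerve and fat lists' shares of counts did not pass (exact two-sided permutation test, adjusted p = 0.242 and 0.302). Among 10 synovial lining markers 4 were higher and 3 lower, and Htra4 and Tspan15 kept apart. The list's share of counts was 0.535 to 0.91% in Achilles and 0.219 to 0.656% elsewhere. Tspan15 was at 75.9, 90.3, 91.4 and 77.8 CPM against 6.91 to 43.7 CPM. Macrophage markers were near the background, with 2 of 18 higher.

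**Figure D4:**
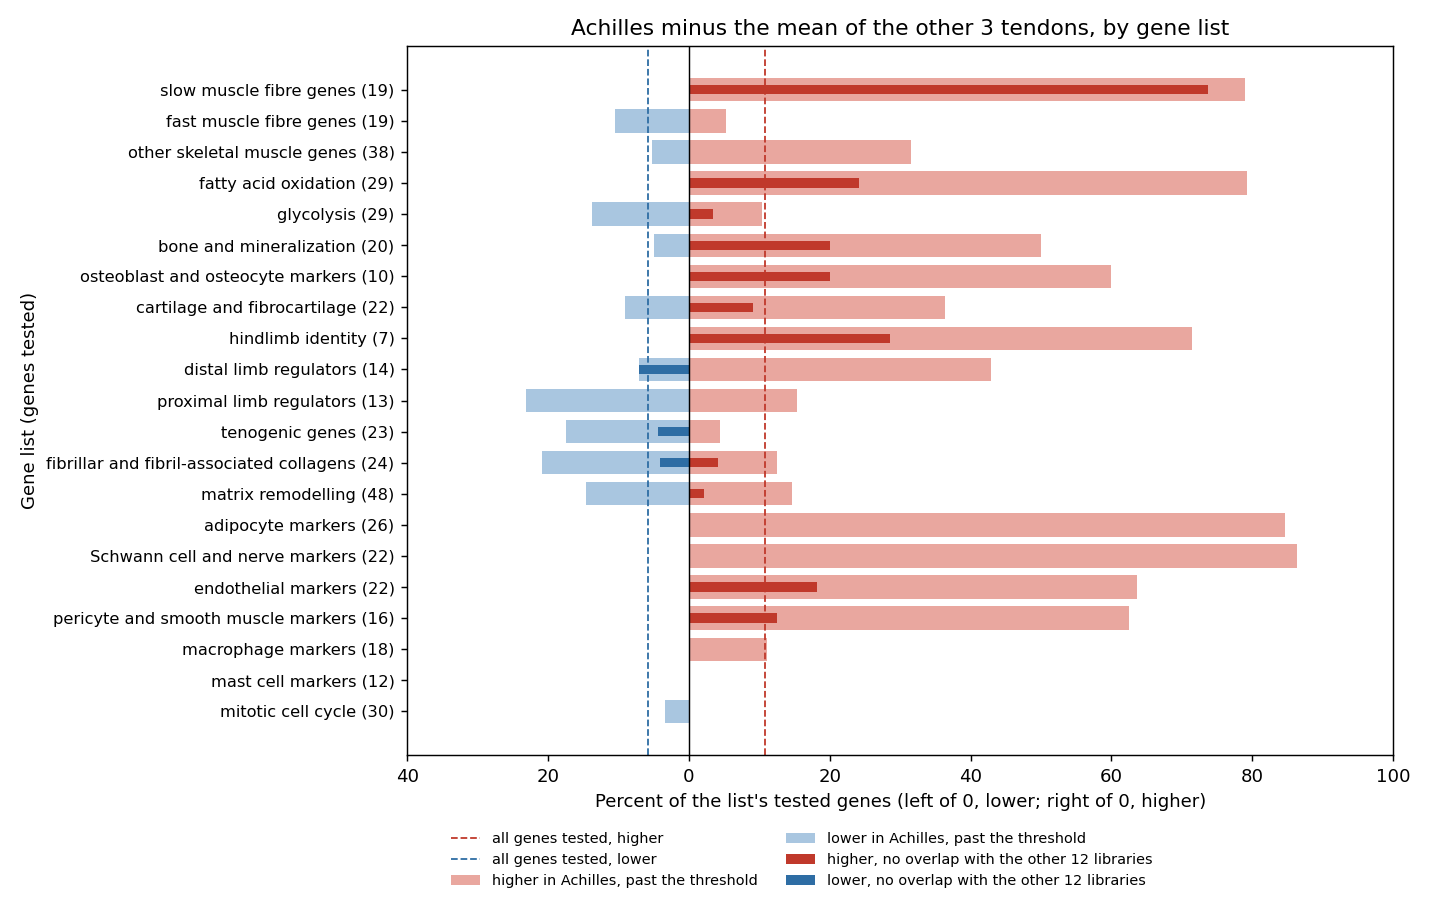
Percent of the tested genes of 21 lists that were higher (right) or lower (left) in Achilles than in the mean of the other 3 tendons by the edgeR test (pale bars) and that kept apart from all 12 other libraries (dark bars), with dashed lines at 10.8% and 5.81% for all genes tested. Slow fibre genes have a dark bar almost as long as the pale one, and fat and nerve markers have no dark bar.

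Several of the higher genes with the largest gaps belonged to none of these groups. Meltf, melanotransferrin, an iron-binding surface protein known from cartilage, was at 27.5, 43.6, 35.8 and 20.8 CPM in Achilles. Elsewhere it ran from 0.0262 to 3.61 CPM with a median of 0.677, so the means were 30.8-fold apart. Lgi1, a secreted protein of synapses and nerve, was at 14.9, 12.2, 24.2 and 12 CPM against at most 2.78 CPM. Both were higher in Patellar than in Supraspinatus, by 2.99 (SE 0.75) and 3.06 (SE 0.53) on the log2 scale (edgeR adjusted p = 0.0032 and 0.00015).

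Tmem196, a membrane protein, was the steadiest of these, at 9.92, 11.7, 10.6 and 10.3 CPM in Achilles and 0.0347 to 2.47 CPM elsewhere. Nlrc3, a brake on innate immune signalling, was at 18.9, 16.4, 28.4 and 19 CPM against 1.17 to 4.53 CPM, and did not differ among the other 3 tendons past the threshold. Rspo3, a secreted amplifier of Wnt signalling, was at 5.63, 4.47, 10.3 and 4.52 CPM against 0.157 to 1.75 CPM. It was 1 of 6 secreted Wnt modulators of 16 that were higher, with 3 lower (10.8% and 5.81% of all genes). Timp4, an inhibitor of matrix metalloproteinases, was at 192 to 285 CPM against 18.2 to 156 CPM. Tgfb1, the founding TGF-beta ligand, was at 26.5 to 50.9 CPM against 12.6 to 24.5 CPM, and the gap between the nearest libraries was 1.08-fold.

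Among the genes lower in Achilles, the widest gaps after that of Tbx5 were those of Miat, Stra6, Il33, Dpp4 and Duoxa1. Miat, a long noncoding RNA, was at 2.36, 1.84, 2.19 and 1.98 CPM in Achilles. In the other 12 libraries it ran from 6.17 to 22.4 CPM with a median of 14.1. It differed between every pair of the other tendons, with log2 differences of -1.39 for Flexor minus Patellar, -0.97 for Flexor minus Supraspinatus and 0.43 for Patellar minus Supraspinatus (SE 0.14 each, edgeR adjusted p = 1.3e-06, 7.4e-05 and 0.017). Stra6, the cellular receptor that takes up retinol, was at 1.12, 0.883, 0.699 and 0.766 CPM in Achilles and at 2.88 to 10.8 CPM elsewhere. Flexor, not Patellar, was its highest tendon, at 8.98 CPM.

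Il33, an alarm cytokine held in the nuclei of stromal cells, was at 25, 26, 13.9 and 24 CPM in Achilles and at 54.1 to 315 CPM (median 111) elsewhere. Dpp4, a surface peptidase of many fibroblasts, was at 6.96, 4.62, 1.99 and 9.91 CPM against 19.2 to 89.8 CPM, 8.68-fold apart in the mean. Duoxa1, which matures an enzyme that makes hydrogen peroxide, was at 4.71, 2.68, 0.949 and 1.7 CPM against 9.12 to 39.2 CPM. Il33 and Duoxa1 were highest in Supraspinatus, where Patellar minus Supraspinatus gave log2 differences of -1.26 and -1.49 (SE 0.29 and 0.35, edgeR adjusted p = 0.0016 and 0.0021). Achilles replicate 3 had the lowest level of all 3 genes.

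Tnxb, tenascin-X, which organizes collagen, was at 197, 268, 124 and 196 CPM in Achilles and at 399 to 789 CPM elsewhere. Clec3b, tetranectin, was at 30.4 to 66.8 CPM against 91.3 to 381 CPM. Flrt2, an adhesion and guidance protein, was at 20.2 to 28.5 CPM against 49.3 to 98.7 CPM, and did not differ among the other tendons past the threshold. Bmp4, a bone morphogenetic protein, was at 20.6, 16.6, 11.8 and 20.2 CPM in Achilles and at 31.6 to 127 CPM (median 44.1) elsewhere. Of 28 BMP and GDF genes, 5 were higher and 2 lower (17.9% and 7.14%), near the 10.8% and 5.81% of all genes. Gdf5 kept apart on the higher side, with Bmp4 and the secreted Fstl1 on the lower.

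Gem, a small GTPase that dampens calcium channels, was 3.6-fold lower in the mean, at 13.6 to 25.5 CPM against 40.4 to 101 CPM. S100a5 and S100a10, calcium-binding proteins, were 6.62-fold and 2.98-fold lower. Apbb1ip, an adaptor for integrin activation, and Fez1, a transport adaptor known from neurons, were 2.39-fold and 2.05-fold lower. Achilles replicate 4 was below replicate 3 only for Fez1 of these 5, and the other 4 were lowest in replicate 3.

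Igfbp6, a binding protein for insulin-like growth factor II that tendon fibroblasts make, was at 414, 714, 272 and 553 CPM in Achilles and at 811 to 2390 CPM elsewhere. Of the 28 lower genes named by rule, 11 kept apart with TMM scaling but not with CPM by total counts, although their means stayed lower: Igfbp6, Col6a1, Boc, Fstl1, Rora, Klf4, Hsp90aa1, Igf1r, Lgals7, Lrba and Ccdc163. Boc, a co-receptor for hedgehog ligands, was at 43.4 to 114 CPM against 142 to 289 CPM. Inhba, the activin A subunit, was at 16 to 25.5 CPM against 29.8 to 110 CPM and kept apart under both scalings. Of 28 immediate-early and heat shock genes, 1 was higher and 7 were lower against the mean of the other tendons (10.8% and 5.81% of all genes).

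**Figure D5:**
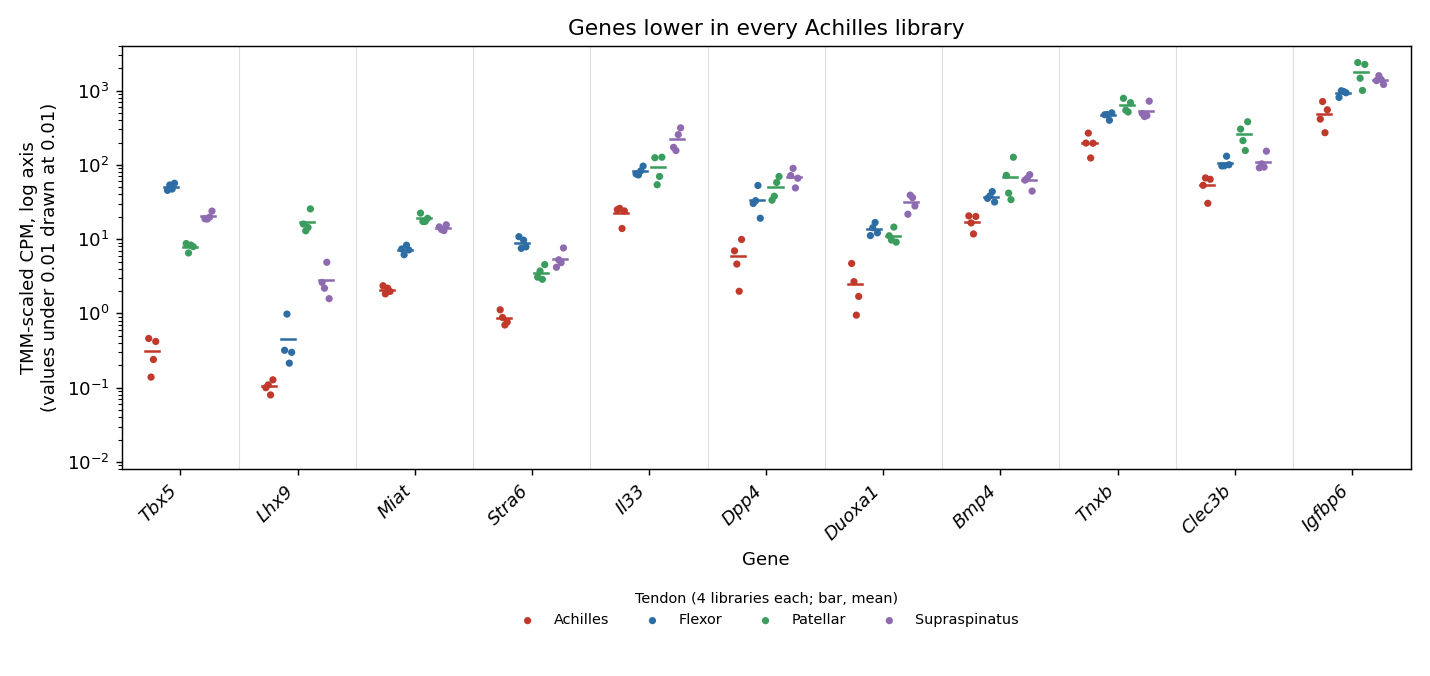
TMM-scaled CPM on a log axis of 11 genes lower in Achilles in each of 16 libraries, with points for libraries and bars for the mean of 4. All 4 Achilles points lie below the other 12 for each gene, and for Tbx5 they run from 0.139 to 0.46 CPM against 6.52 to 56.7 CPM.

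Of 23 tenogenic genes, 1 (Egr2) was higher and 4 (Bgn, Fmod, Igfbp6 and Kera) lower against the mean of the other tendons by the edgeR quasi-likelihood test, against 10.8% and 5.81% of all genes, and 1, Igfbp6, kept apart. Egr2 is also counted among the higher genes of the Schwann cell and nerve list and of the immediate-early and heat shock list. With DESeq2, 7 of the 23 were lower, as were 2022 of all 23754 genes. Against single tendons, which share the Achilles libraries, 3 were higher and 2 lower than in Flexor, 2 and 8 than in Patellar, and 3 and 8 than in Supraspinatus. Of all genes, 9.72% were higher and 6.49% lower than in Flexor, 21% and 17.4% than in Patellar, and 16.7% and 16.9% than in Supraspinatus. Scx, the tendon transcription factor, was at 22.6, 23.3, 11.9 and 17.3 CPM in Achilles and at 3.49 to 128 CPM elsewhere, with a log2 difference of -0.70 (SE 0.24, edgeR adjusted p = 0.0535). That value passed in 9 of 28 other settings, among them DESeq2 (adjusted p = 0.0242), limma-voom (adjusted p = 0.0463) and the edgeR fit with mouse number as a block (adjusted p = 0.0429). Against single tendons Scx went both ways, with log2 differences of 1.94 from Flexor, -2.45 from Patellar and -1.58 from Supraspinatus (SE 0.28 to 0.29, edgeR adjusted p = 0.00034, 1.41e-05 and 0.000498). Fmod, fibromodulin, was lower by a log2 difference of -1.13 (SE 0.31, edgeR adjusted p = 0.0194), with overlap. Mkx, Tnmd, Thbs4, Comp and Col1a1 gave log2 differences of -0.24, 0.07, -0.21, 0.19 and -0.34 (SE 0.22 to 0.36) and edgeR adjusted p of 0.514 or more. Of 24 collagens 3 were higher and 5 lower, the lower ones including the 3 chains of collagen VI, Col6a1, Col6a2 and Col6a3. P4ha1, P4ha2 and P4ha3, which hydroxylate collagen, and Bmp1 and Pcolce, which trim procollagen, were among the 7 lower of 48 matrix remodelling genes, where 7 others were higher.

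The levels of many chosen genes also differed among the 3 other tendons. Of the 396 higher genes 206 (52%) and of the 155 lower genes 85 (54.8%) passed the edgeR test in at least 1 contrast among Flexor, Patellar and Supraspinatus, against 68.2% of all genes tested. The rule bears on this, since it bounds the genes by the extreme of the 12 libraries. So does the filter, since 68 of the 396 higher genes had enough counts only through the Achilles libraries. Those 68 had few counts to compare among the other tendons, and they stay in the percentages given here. Flexor was below Patellar for 8.08% of the higher genes, against 24.1% of all genes, and above it for 24.2%, against 26.2%. For the lower genes the balance was the other way, with Flexor below Patellar for 31% and above it for 4.52%. Patellar was above Supraspinatus for 15.9% of the higher and 21.9% of the lower genes (26.8% of all genes) and below it for 22.5% and 16.8% (26.4%). Flexor was above Supraspinatus for 16.2% and 3.87% (12.4%) and below it for 4.8% and 22.6% (14.7%). Flexor was the highest of the other tendons for 186 of the 396 higher genes (47%, against 29.4% of all genes tested) and the lowest for 87 of the 155 lower genes (56.1%, against 24.7%). Single libraries bounded many genes, Patellar replicate 2 being the highest other library for 60 higher genes and Flexor replicate 4 the lowest for 25 lower genes.

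At the edge of the rule the groups nearly touched. Just inside, Mavs reached 84.3 CPM in its lowest Achilles library and 84.2 CPM in its highest other library, and Pcdh17 6.64 and 6.63 CPM. Just outside, Bcl2 reached 29.9 CPM in its lowest Achilles library and 30 CPM in Patellar replicate 4, and Rab33b 31.1 and 31.2 CPM. Among lower genes Lrba and Ccdc163 lay just inside and Cadm3 and Calm2 just outside, Calm2 with its highest Achilles and lowest other library both at 234 CPM.

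Promoter letters were compared for the 253 higher and 108 lower genes that matched a RefSeq promoter by symbol. TATAAA, on either strand in the 250 bases before the start, was in 9.09% of the higher and 15.7% of the lower windows, against 7.64% of 13724 windows of all genes tested. TGTGGT was in 13.8% and 6.48%, against 11.3%. CANNTG was in 67.2% and 55.6%, against 59.4%, and these shares are given as a description with no test.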

How the data were processed

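RNA was isolated with a miRNeasy kit and DNase I, per the labels' protocols. The read counts per gene were deposited by the authors; HISAT2, FastQC, edgeR and mm10 are named, per the submitters' processing notes. No source used here gives the counter, strand setting, annotation release or the versions of these tools, so antisense, overlapping and near-identical genes are uncertain. Gene positions follow GENCODE M21.

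Counts were scaled by TMM and filtered with filterByExpr, which kept 23754 of 41204 genes. They were tested with edgeR 4.0.16 (robust quasi-likelihood, all 16 libraries in 1 fit, Benjamini-Hochberg over all genes, threshold 0.05) in R 4.3.3, with DESeq2 1.42.0 and limma 3.58.1 as alternatives. The edgeR code was tested on simulated data. Shares of counts were compared by exact permutation. The members and lists were chosen with earlier results of these data known. Named genes were the 15 higher and 15 lower with the largest gap and a mean of at least 5 CPM, up to 3 of each list without overlap (otherwise up to 2 that passed), a panel of tendon and limb genes, and those at the rule's edge. Rspo3, Ldhb and other genes named from lists fall under the list rule; genes named only to complete a count were chosen after their values were seen.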

Additional observations from a re-analysis of the deposited data

Results flagged for a closer look

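Of 141 Achilles values tested, 13 had 1 library far from the other 3 (its gap to the nearest, as a share of the range, above Dixon's critical value for 4). Chance flags about 1 in 20 such groups.

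Achilles replicate 3 stood above the others for Idh2 (1487 CPM, the others at most 796), Ldhb (946 CPM, at most 450), Myl2 (2022 CPM, at most 1172) and Eci1 (226 CPM, at most 137). It was the lowest for Il33 (13.9 CPM, the others at least 24). The satellite cell list took 0.465% of its counts, and the osteoclast list 0.0172%, the lowest of the 4. Replicate 3 also had the highest muscle share, 15.5%, and the part of muscle RNA in these values was not tested.

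Achilles replicate 1 was the highest for the endothelial genes Kdr (139 CPM, the others at most 101) and Tie1 (103 CPM, at most 81.1), and for Tnni1 as a percent of Tnni1 and Tnni2 (20.3, at most 15.1). Achilles replicate 4 was the highest for Timp4 (285 CPM, at most 208), Hsp90aa1 (35.2 CPM, at most 34) and Myh4 as a percent of the 4 adult myosins (12.8, at most 2.97).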

How the results depend on the processing

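The scaling, the tendons compared and the threshold each moved the counts. Genes without overlap numbered 671 higher and 40 lower with CPM by total counts, 197 and 102 with a mean of at least 5 CPM, 1763 and 1502 without the Patellar libraries, 726 and 403 without Supraspinatus, and 965 and 831 without Flexor. Fewer libraries loosen the rule by its construction. Calls against the mean of the other tendons numbered 4723 higher and 4340 lower without Patellar, 1577 higher with a mean of at least 5 CPM, and 496 and 57 against a fold change of 2 (glmTreat). Calls against all 3 tendons, 274 higher and 138 lower, became 1922 and 1651 without Patellar, 695 and 796 without Flexor, 54 and 9 with glmTreat, 163 higher at 5 CPM and 428 higher with limma-voom. Leaving out 1 library gave 420 to 611 higher and 155 to 239 lower genes without overlap, both most without Achilles replicate 2. It gave 1841 to 3388 and 754 to 1794 calls against the mean, and 203 to 373 and 88 to 196 against all 3. Where no construction shows it, the cause was not tested.

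With the mouse number as a replicate block, 2415 genes were higher and 1221 lower against the mean, and 264 and 132 against all 3. Same-numbered libraries did not deviate together: over 24 pairs r ran from -0.135 to 0.255, 2 were over 0.1, and 6 of 16 libraries correlated best with their own number. Of 3062 named gene values under other settings, 2953 kept direction and side of the threshold, 95 lost the call, 11 gained it and 3 reversed: Myod1 to -1.60 without Patellar, and Pitx1 to -0.52 and Shox2 to -0.33 without Flexor. The red blood cell share, 0.0218% in Achilles, lay above the other tendons only without Patellar.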

Other observations

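Some genes of the early stress response were lower against the mean of the other tendons, 20 of 28 were not called, and 0 were lower against all 3 tendons. Of 28 immediate-early and heat shock genes, Atf3, Hsp90aa1, Hspa1b, Hsph1, Jund, Klf2 and Klf4 were lower and Egr2 higher against the mean of the other tendons (edgeR quasi-likelihood test; 5.81% and 10.8% of all genes). Klf4, a transcription factor induced by stress and serum, was at 37.5, 38.7, 27.2 and 27.3 CPM in Achilles and at 39.8 to 156 CPM elsewhere. Against Flexor alone Klf4 did not pass (edgeR adjusted p = 0.137). Of 36 axon guidance genes, 9 were higher and 8 lower, the lower ones including the secreted semaphorins Sema3a, Sema3c, Sema3d and Sema3e.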
